A study of Mus musculus with 16 samples.

Results

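The clustered histone genes of the mouse were examined in ATAC-seq peak lists of CD8+ T cells. The members were all protein-coding genes of GENCODE release M21 whose symbol begins with Hist1h, Hist2h, Hist3h or Hist4h, which gave 67 of 21938 protein-coding genes. For each of them the presence and the strength of a peak near the transcription start were read in each of 16 libraries. ATAC-seq uses a transposase that cuts open chromatin, so that a peak marks a place where cut fragments pile up above the background. The libraries came from effector (TE) and memory (TM) T cells, which the study obtained in culture from OT-I spleen T cells by activation with OVA peptide followed by IL-2 or IL-15. WT cells carry TPdh+/+ on their labels, and TPdh-/- cells come from adult mice of both sexes with a floxed Pdha1 allele crossed to CD4-Cre. Each combination of genotype and cell type had 4 libraries. CD4-Cre acts in the T cell lineage, so other cells of these mice keep Pdha1, which encodes a subunit of the pyruvate dehydrogenase complex. Nothing in the labels says that the 4 libraries of a group came from separate animals, so the p-values measure the spread between these libraries, which may be technical.

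Replication-dependent histone genes supply the histones that package newly copied DNA, and they are transcribed mainly in S phase. Their mRNAs end in a stem-loop in place of a poly(A) tail, which is bound by SLBP, and their transcription is coordinated by NPAT in nuclear bodies that form at the clusters. H2A, H2B, H3 and H4 form the core of the nucleosome and H1 is the linker histone that binds the DNA between nucleosomes. Many H2A and H2B genes are arranged head to head and share the DNA between their starts.

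The Hist1 cluster on chromosome 13 held 54 members in blocks of 23 and 31 genes that lie 1487 kb apart. The Hist2 cluster on chromosome 3 held 10, the Hist3 cluster on chromosome 11 held 2 and the Hist4 locus on chromosome 6 held 1. By product there were 6 H1, 18 H2A, 18 H2B, 12 H3 and 13 H4 genes. The genes are short and 63 of the 67 have 1 annotated start. Hist1h2be is an exception in its layout, since its upstream starts lie 35138 bp from its coding sequence and next to Hist1h1e.

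The sequence upstream of 4 sets of members is shown here because these promoters were among those with peaks in the most libraries or differed most between groups. Capitals mark letters of 6 short promoter motifs read on both strands, each match counted also where matches overlap. They are the TATA box TATAAA, the CCAAT box CCAAT, the octamer ATTTGCAT, the H1 box AAACACA and the E2F sites TTTGGCGC and TTTCCCGC. The stretches are RefSeq sequence of build GRCm38.p6 and lie outside the annotated transcripts of the members they are named for. For the head-to-head pairs the stretch lies between the starts on the plus strand, and for single genes it is the 200 bases before the start on the strand of the gene.
Hist1h2ah and Hist1h2bk, chr13:22035569-22035868, plus strand: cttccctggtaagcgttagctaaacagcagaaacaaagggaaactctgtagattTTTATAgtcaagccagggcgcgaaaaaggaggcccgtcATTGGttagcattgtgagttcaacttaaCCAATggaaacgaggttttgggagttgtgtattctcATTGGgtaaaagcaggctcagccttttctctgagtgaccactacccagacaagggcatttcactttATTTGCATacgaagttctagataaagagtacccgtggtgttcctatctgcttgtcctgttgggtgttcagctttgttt
Hist1h2ac and Hist1h2bc, chr13:23683949-23684198, plus strand: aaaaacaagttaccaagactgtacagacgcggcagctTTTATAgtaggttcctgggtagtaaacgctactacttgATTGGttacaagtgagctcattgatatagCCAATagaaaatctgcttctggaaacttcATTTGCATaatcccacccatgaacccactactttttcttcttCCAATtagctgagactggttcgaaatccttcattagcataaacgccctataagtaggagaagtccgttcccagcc
Hist1h1c, chr13:23738608-23738807, plus strand: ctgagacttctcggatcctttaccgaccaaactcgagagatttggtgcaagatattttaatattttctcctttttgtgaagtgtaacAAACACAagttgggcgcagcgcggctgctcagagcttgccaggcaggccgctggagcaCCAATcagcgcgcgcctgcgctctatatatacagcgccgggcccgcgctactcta
Hist1h4a, chr13:23761231-23761430, minus strand: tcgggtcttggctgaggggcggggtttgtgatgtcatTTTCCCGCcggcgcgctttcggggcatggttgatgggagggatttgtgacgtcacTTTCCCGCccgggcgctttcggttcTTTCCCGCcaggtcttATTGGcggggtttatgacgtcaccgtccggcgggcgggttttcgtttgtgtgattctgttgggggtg

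In the 250 bases before the start, a CCAAT box was found at 54 of 67 members (80.6%), against 36.0% of all protein-coding genes, and at 18 of 18 H2A and 18 of 18 H2B genes. A TATA box was found at 34 members (50.7%), against 11.5% of all genes. The octamer was found at 7 H2A and 8 H2B genes and at 0 H1, H3 or H4 genes, which is 22.4% of members and 1.45% of all genes. The H1 box was found at 4 of 6 H1 genes, and at 11.9% of members against 5.66% of all genes. The E2F letters TTTCCCGC were found at Hist1h4a alone among the members (1.49% against 1.06% of all genes), and TTTGGCGC at 0 members (0.52% of all genes). Median GC content was 44.4% at members and 54.0% over all genes. These are matches of letters and were not tested as binding sites, and head-to-head neighbours share much of the sequence counted.

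Depth differed between the groups. A list had between 2290 and 86637 peaks. Background coverage, the 1st percentile of the local background over the peaks of a list in fragments per base, ranged from 0.173 to 1.55. It served as the measure of depth. It was 1.18 ± 0.406 (SD, n = 4) in WT TE, 0.324 ± 0.13 in TPdh-/- TE, 0.411 ± 0.107 in WT TM and 0.224 ± 0.0308 in TPdh-/- TM. The part of depth in the results on genotype was not tested, since it cannot be told apart from genotype in these lists. A library was said to hold a gene when a peak reached to within 1000 bp of an annotated start. Of 7 T cell markers 6 were held by at least 1 library, Cd8b1 by 8 of 16 and Cd2 by 0. Cd4, which marks helper T cells, was held by 0 libraries. The B cell marker Cd79a and the myeloid marker Lyz2 were also held by 0, while Csf1r, a myeloid marker, was held by 4. Over gene and library pairs, 25% of T cell, 4.69% of B cell and 10.9% of myeloid marker pairs were held, against 20.9% over all genes. T cell markers were above all genes in TPdh-/- TM (39.3% against 29.4%), WT TE (25% against 18.8%) and WT TM (21.4% against 15.8%). In TPdh-/- TE they were below, at 14.3% against 19.5%. Myeloid markers reached 25% in TPdh-/- TM and 12.5% in TPdh-/- TE, and B cell markers 12.5% in WT TM. These lists are short, and cell identity was not tested.

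Promoter peaks at clustered histone genes were sparse. WT TE libraries held 9, 11, 2 and 4 members in replicates 1 to 4. TPdh-/- TE libraries held 9, 0, 16 and 8, and WT TM libraries held 14, 0, 0 and 14. TPdh-/- TM libraries held 17, 14, 12 and 22. In TM the mean was 16.25 ± 4.35 (SD, n = 4) for TPdh-/- and 7.0 ± 8.08 for WT, and in TE it was 8.25 ± 6.55 for TPdh-/- and 6.5 ± 4.20 for WT. All protein-coding genes had the same order in TM, with 29.4% held in TPdh-/- and 15.8% in WT, and in TE, with 19.5% and 18.8%. In equal-sized lists of the 2290 best peaks of each library the means were 0.0 members for TPdh-/- and 0.5 for WT in TM, and 0.0 and 0.75 in TE. These rest on 5 member and library pairs in 3 libraries, and that of WT TM on replicate 4 alone, without which it was 0. All genes in these lists were held at 1.5% to 3.8% in TPdh-/- TM and 0.766% to 2.79% in WT TM, and at 0.479% to 2.93% in TPdh-/- TE and 7.48% to 9.59% in WT TE. TPdh-/- TM had the highest mean, but TPdh-/- TE replicate 3 held more members than TPdh-/- TM replicates 2 and 3, WT TM replicates 1 and 4 held as many as replicate 2, and the other 3 groups overlapped one another widely. The 3 libraries that held no member were TPdh-/- TE replicate 2 and WT TM replicates 2 and 3. These 3 libraries held 8.67%, 8.19% and 4.82% of all protein-coding genes, while the 13 others held 8.39% to 34.7%.

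The share of members held was below the share of all protein-coding genes in 15 of 16 libraries, with TPdh-/- TE replicate 1 as the exception at 13.4% against 12.9%. The comparison changes with the genes it is made against. Among the 4882 protein-coding genes with 1 annotated start the share held was 1.74% (WT TM replicate 3) to 14.9% (TPdh-/- TM replicate 4). All genes read at their annotated 5' end alone were held at 3.44% and 28.3% in the same libraries. The part of the number of starts in these shares was not tested. Members lay below the genes with 1 annotated start in 6 of 16 libraries. The share of members minus that of all genes was on average -9.12 ± 3.04 percentage points (SD, n = 4) in WT TE, -7.15 ± 7.60 in TPdh-/- TE, -5.33 ± 2.95 in WT TM and -5.12 ± 5.28 in TPdh-/- TM. When all genes were read at their annotated 5' end alone, members lay below in 10 of 16 libraries. The difference then turned to 1.37 percentage points in TPdh-/- TM and was -7.26 in WT TE, -2.18 in TPdh-/- TE and -1.89 in WT TM.

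**Figure D1:**
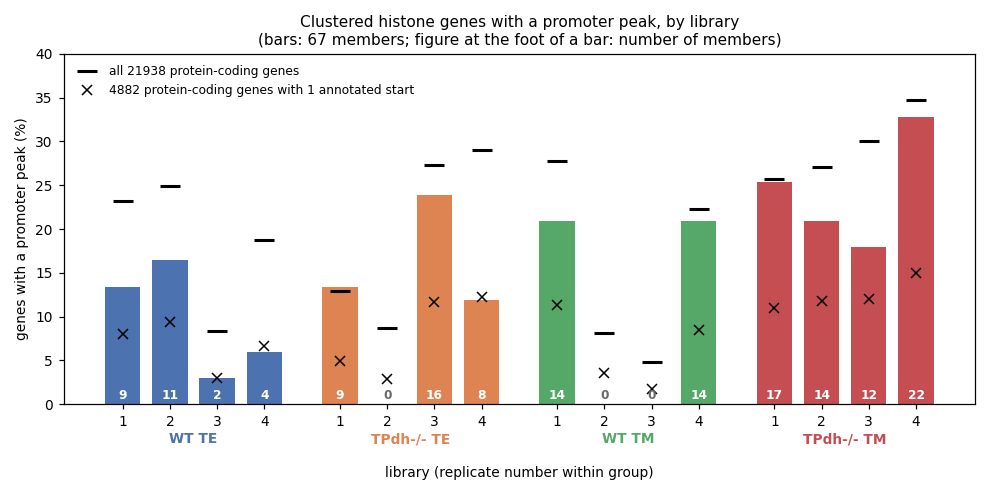
Percent of clustered histone genes with a promoter peak (bars, coloured by group) in each of 16 libraries, with the number of members at the foot of each bar. Dashes show all protein-coding genes and crosses those with 1 annotated start. Bars lie below the dashes in 15 of 16 libraries and below the crosses in 6.

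No member was held by all 4 libraries of any group, while 3.44% of all genes were in WT TE, 0.729% in TPdh-/- TE, 0.483% in WT TM and 6.52% in TPdh-/- TM. Members held by 3 of 4 libraries numbered 2 in WT TE, 2 in TPdh-/- TE, 0 in WT TM and 6 in TPdh-/- TM. These are 2.99%, 2.99%, 0% and 8.96% of members, against 8.36%, 5.55%, 3.15% and 11.2% of all genes, which had the same group lowest and the same group highest. WT TM replicates 1 and 4 each held 14 members and shared 4, which is 28.6% of either list, where all genes shared 43.2% and 53.8%. TPdh-/- TM replicates 1 and 4 shared 9 members, the most of any pair within a group, 52.9% of the 17 in replicate 1 and 40.9% of the 22 in replicate 4, where all genes shared 60.1% and 44.4%. Across the series, 47 members were held by at least 1 library and 20 by none. Only Hist2h4 was held by 8 libraries and no member by more, whereas 14.6% of all protein-coding genes were held by 8 or more.

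The 152 member and library pairs rested on 109 peaks, since neighbouring members shared peaks. Of these, 82 (75.2%) overlapped a peak of another library of the series, against 72% of promoter peaks of all genes. A peak of another library of the same group was overlapped by 41 (37.6%), against 47.7%. In TPdh-/- TM these were 23 of 47 member peaks (48.9%), close to the 47.8% of all promoter peaks. In WT TM they were 4 of 21 (19%) against 34.7%, in TPdh-/- TE 6 of 23 (26.1%) against 33.3% and in WT TE 8 of 18 (44.4%) against 74.5%.

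The histone types differed little in how often they were held. Over all 16 libraries the share of gene and library pairs held was 12.5% for H1, 13.2% for H2A, 14.9% for H2B, 15.6% for H3 and 13.9% for H4, and 14.2% for all members against 20.9% for all genes. Over all genes the shares were 29.4% in TPdh-/- TM, 19.5% in TPdh-/- TE, 18.8% in WT TE and 15.8% in WT TM. As over all genes, TPdh-/- TM had the highest share for H1 (25%), H2A (26.4%), H2B (27.8%) and H3 (25%). H4 was the exception, with 15.4% in both TPdh-/- TM and WT TM, 13.5% in WT TE and 11.5% in TPdh-/- TE. For H3, TPdh-/- TE followed at 20.8%, against 10.4% in WT TM and 6.25% in WT TE. No test was made between types, since members of a type share peaks and sequence.

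By cluster, the first Hist1 block was held in 12.8% of pairs, the second in 15.3% and Hist2 in 13.8%. In the Hist2 cluster 8 of 40 pairs were held in TPdh-/- TE and 10 of 40 in TPdh-/- TM, against 2 of 40 in WT TE and 2 of 40 in WT TM. The TPdh-/- values, 20% and 25%, compare with 19.5% and 29.4% over all genes, and the WT values, 5% each, with 18.8% and 15.8%. Hist3h2ba was held by TPdh-/- TM replicate 2 alone, with a fold enrichment of 3.17, and Hist3h2a by WT TM replicate 4 (5.13) and TPdh-/- TM replicate 3 (6.34). Hist4h4, which lies alone and codes for the same H4 protein family as the clustered H4 genes, was held by 1 library in each group. Its fold enrichment was 5.30 in WT TE replicate 2, 3.91 in TPdh-/- TE replicate 1, 4.11 in WT TM replicate 1 and 5.17 in TPdh-/- TM replicate 4.

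**Figure D2:**
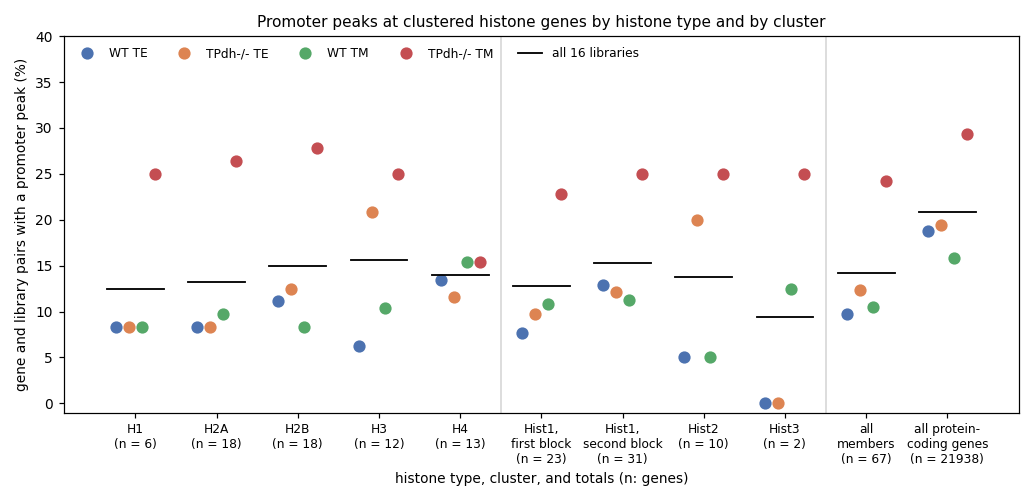
Percent of gene and library pairs with a promoter peak, by histone type, by cluster (Hist4, a single gene, is left out) and over all members and all protein-coding genes. Points are groups of 4 libraries and bars are all 16 libraries. The bars of the types lie between 12.5% and 15.6%, and TPdh-/- TM is highest for each type but H4, where it equals WT TM.

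The member held by the most libraries was Hist2h4, an H4 gene of the Hist2 cluster. Its fold enrichment, the ratio of summit pileup to local background with 1 added to both, was 4.87 and 4.37 in WT TE replicates 1 and 2. It was 3.52 and 5.11 in TPdh-/- TE replicates 1 and 3, and 4.92 in WT TM replicate 1. In TPdh-/- TM it was 4.80, 4.76 and 3.30 in replicates 1, 2 and 4. The peak was thus present in 2, 2, 1 and 3 libraries of the groups, and its strength in them overlapped. Its summit lay 20 to 590 bp inside the gene in each of these libraries. Only 0.82% of the sequence around its start is repeated elsewhere in the genome.

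Hist1h2bk and Hist1h2ah, a head-to-head H2B and H2A pair, were held by 7 and 6 libraries, with 1 shared peak in 6. The shared peak had a fold enrichment of 4.26 in WT TE replicate 1, 6.13 in TPdh-/- TE replicate 3 and 4.77 in WT TM replicate 4. In TPdh-/- TM it was 5.74, 4.77 and 5.15 in replicates 1, 3 and 4. TPdh-/- TE replicate 4 had a weaker peak (4.15) that reached Hist1h2bk only. In 4 libraries, WT TE replicate 1, TPdh-/- TE replicate 3 and TPdh-/- TM replicates 3 and 4, the summit fell between the starts, 98 to 157 bp before that of Hist1h2ah, within the stretch shown that holds the CCAAT boxes.

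Hist1h1c, a gene for linker histone H1, was held by 6 libraries. Its fold enrichment was 4.12 and 6.58 in WT TE replicates 1 and 2, and 4.21 in TPdh-/- TE replicate 3. In TPdh-/- TM it was 4.56, 4.60 and 6.79 in replicates 1, 2 and 4, and no WT TM library held it. The summits lay from 76 bp before to 1107 bp after the start, and only that of TPdh-/- TM replicate 4 was in the upstream sequence with the H1 box. Of the other linker genes, Hist1h1e was held by 3 libraries, 1 in each group but WT TE, and Hist1h1a by 3, of which WT TM replicate 4 and TPdh-/- TM replicates 2 and 4. Hist1h1b, Hist1h1d and Hist1h1t, the last being the testis form, were held by 0.

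Hist1h2ac and Hist1h2bc, another H2A and H2B pair, had the strongest peak of the members. Its fold enrichment was 5.09, 6.58 and 4.65 in WT TE replicates 1, 2 and 4, 7.57 in WT TM replicate 4 and 6.50 in TPdh-/- TM replicate 3. The peak of WT TM replicate 4 rested on 10 fragments and ranked at percentile 93.3 of the promoter peaks of that library. TPdh-/- TE libraries did not hold the pair. The summit lay between the starts in 4 of the 5 libraries, in the sequence printed above that holds an octamer next to CCAAT boxes, and 12 bp inside Hist1h2ac in TPdh-/- TM replicate 3.

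In all 10 members were held by 5 libraries. Besides Hist1h2ac and Hist1h2bc, the 4 with the highest mean −log10 q were Hist1h4a, Hist1h2be, Hist1h2ak and Hist1h2bn, and the rest were Hist1h3e, Hist1h2ag, Hist1h2bj and Hist1h3c. Hist1h4a, an H4 gene, had a fold enrichment of 4.09 in WT TE replicate 2, 5.49 in TPdh-/- TE replicate 3, 5.88 and 5.12 in WT TM replicates 1 and 4, and 5.03 in TPdh-/- TM replicate 4. The groups held it in 1, 1, 2 and 1 libraries. The pair Hist1h2ak and Hist1h2bn had a fold enrichment of 4.84 in TPdh-/- TE replicate 4, 3.55 in WT TM replicate 1 and 3.18, 3.96 and 6.13 in TPdh-/- TM replicates 1, 2 and 3. No WT TE library held that pair. The peaks at Hist1h2be had a fold enrichment of 3.35 to 6.64 in 5 libraries, and as its starts lie beside Hist1h1e, the same peak counted for both genes in TPdh-/- TE replicate 1 and WT TM replicate 1.

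**Figure D3:**
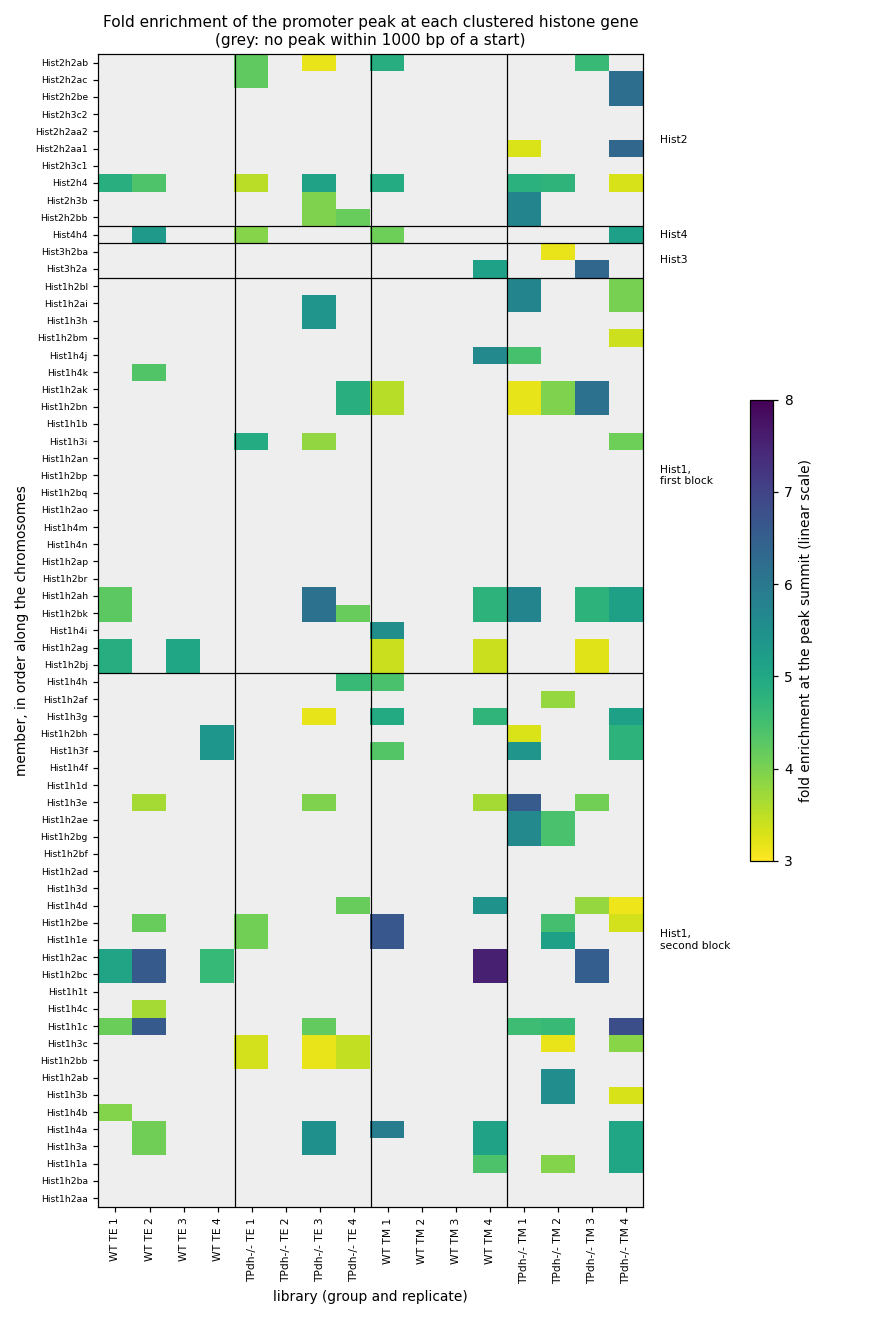
Fold enrichment of the promoter peak at each of 67 clustered histone genes (rows, in chromosome order) in each of 16 libraries (columns). Grey cells have no peak within 1000 bp of a start. Filled cells are scattered, with 152 of 1072 filled, and a run of 8 rows in the first Hist1 block, from Hist1h2an to Hist1h2br, is empty throughout.

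Head-to-head pairs were mostly covered by a single peak. There were 13 such pairs, 12 of them of H2A with H2B, with starts 175 to 659 bp apart (median 267). A library held at least 1 gene of a pair in 33 cases over 8 pairs, both genes in 29 and both through the same peak in 28. The summit lay between the starts in 15 of these cases. Presence at H2A and H2B members is therefore not counted independently, and the distance of 1000 bp used here exceeds the space between their starts. Over all member and library pairs the summit was at a median of 36 bp before the start and within 250 bp of it in 56.6%, against 34 bp before and 63.8% for all genes.

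Where a member had a peak, the peak was weak. Over the 152 member and library pairs, fold enrichment ranged from 3.13 to 7.57 with a median of 4.65. The −log10 q ranged from 1.35 to 7.50 with a median of 3.18. The summits held 3 to 16 fragments. With each shared peak counted once, median pileup was 10 fragments in WT TE, the deepest group, 6 in WT TM, and 5 in TPdh-/- TE and TPdh-/- TM. Counted in the same way, the median fold enrichment at members was 4.51 in WT TE, 4.15 in TPdh-/- TE, 4.88 in WT TM and 4.60 in TPdh-/- TM, with overlapping ranges. It was below the median of all promoter peaks in 10 of the 13 libraries that held members. By −log10 q, the distinct member peaks stood at a median percentile of 20.1 among the promoter peaks of their library in WT TE. The median was 26.3 in TPdh-/- TE, 41.4 in WT TM and 45.9 in TPdh-/- TM. Of the 152 pairs, 19 reached a −log10 q of 5. As neighbours share peaks, these rested on 7 distinct peaks in TPdh-/- TM, 1 in TPdh-/- TE and 2 in each WT group. At that limit a library held 0% to 7.46% of members and 0.378% to 14.9% of all genes. Members then lay below all genes in 16 of 16 libraries.

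**Figure D4:**
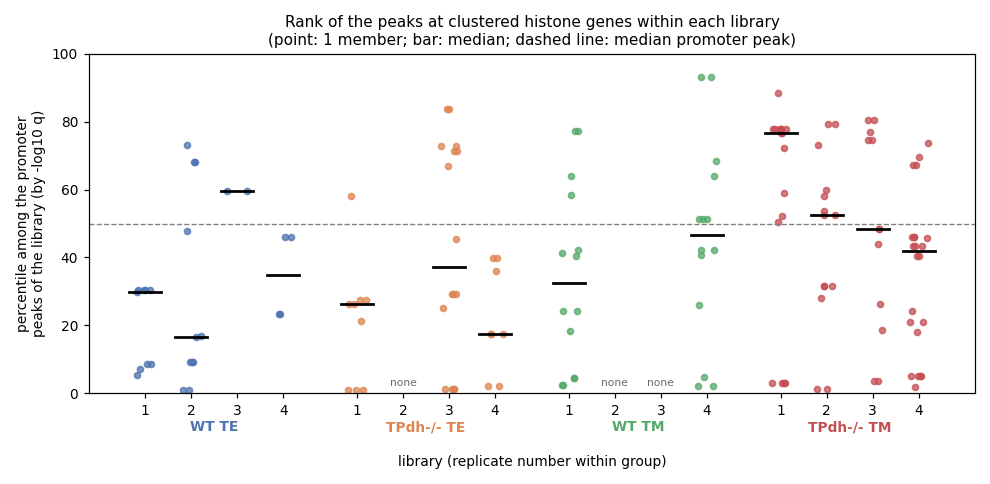
Percentile of the peak at each member among the promoter peaks of its library, ranked by −log10 q. Points are members, black bars are medians over members and the dashed line is the median promoter peak. Most medians lie below the line, and those of WT TE replicate 3 and TPdh-/- TM replicates 1 and 2 lie above it.

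The 20 members held by no library comprised 3 H1, 6 H2A, 5 H2B, 3 H3 and 3 H4 genes, which is 29.9% of members against 25% of all genes. Of these, 8 are neighbours in the first Hist1 block, at chr13:21785826-21838530 with 1000 bp on each side. That stretch of 52.7 kb had 3 peaks in all 16 libraries together, where the genome has 12.5 on average over such a length. Hist1h2ba and Hist1h2aa, the testis forms of H2B and H2A at the far end of the second block, were also held by none, as was Hist1h1t. They are named here after their values were seen.

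Reads that map to several places had been removed before peaks were called, so near-identical copies of these genes were looked for. Around the starts, the share of 50-base stretches that occur more than once in the genome had a median of 19.3% at members and 0 over all genes. It was above 50% at 10 members, of which 9 were held by none. Hist1h2bq, Hist1h2ao, Hist1h2ap and Hist1h2br reached 100%, and Hist1h2bq shared 99.9% with Hist1h2br. Of the 1211 protein-coding genes above 50%, 86.0% were held by none. The exception among members was Hist2h2aa1 (54.4% repeated), held by TPdh-/- TM replicates 1 and 4.

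The other members without a peak had little or moderate repeated sequence. Of the 57 members at 50% or less, 11 were held by none, which is 19.3% against 21.4% of all genes in that range. These 11 had at most 36.8% repeated, among them Hist1h1b, Hist1h1d and Hist1h1t with no repeated stretch at all. Members with 10 to 50% repeated were held in 17.8% of pairs, against 9.27% for all genes in that range. Members at 50% or less were held in 16.4% of pairs against 21.9% for all genes. The part of lost reads in the missing peaks was not tested.

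**Figure D5:**
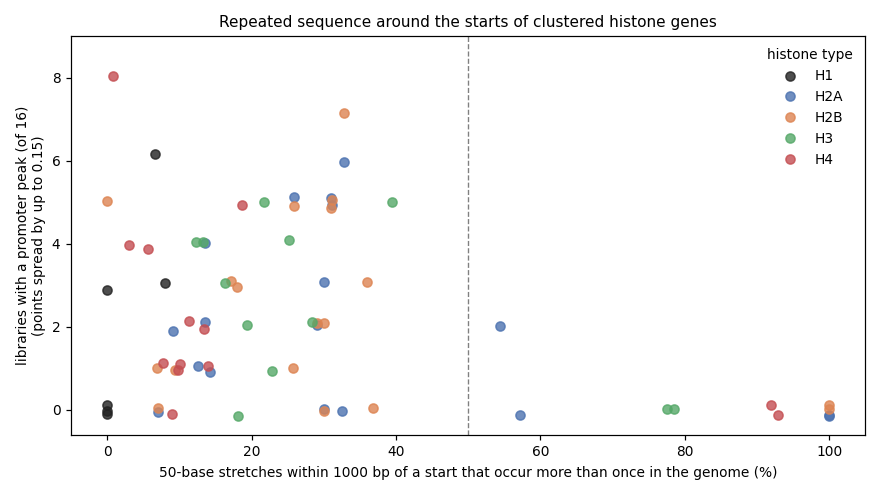
Share of 50-base stretches within 1000 bp of a start that occur more than once in the genome, in percent, against the number of libraries (of 16) with a promoter peak, for each member coloured by histone type. To the right of the dashed line at 50% lie 10 members, 9 of them at 0 libraries. Hist2h4, with 8 libraries, lies near 0%.

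The effect of genotype in TM was compared first. Of 42 members held by at least 1 of the 8 TM libraries, 28 were held by more TPdh-/- than WT libraries, 6 by fewer and 8 by as many. These are 66.7% and 14.3% of members, against 65.8% and 16.5% of the 14714 genes compared in the same way, shares that differ by under 3 percentage points. No member separated the groups, meaning held by 4 of 4 libraries of one and 0 of 4 of the other, where 0.904% of genes did. Hist1h1c was held by 3 TPdh-/- and 0 WT libraries, TPdh-/- TM replicate 3 being the one without a peak (two-sided Fisher's exact test p = 0.143, Benjamini-Hochberg adjusted p = 1.0). A surplus of at least 3 libraries was thus seen at 1 of 42 members for TPdh-/-, against 7.2% of genes, and at 0 members for WT, against 0.211%. Hist1h1c was held by 2 TPdh-/- TM libraries with a window of 250 bp, 1 at a −log10 q of at least 5 and 0 with equal-sized lists. WT TM libraries held it in 0 cases at each of these settings.

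In TE, 16 of 33 members were held by more TPdh-/- than WT libraries and 10 by fewer, 48.5% and 30.3%, against 44.9% and 35.6% of 12608 genes. Members separated the groups in 0 cases, where 0.492% of genes did. Hist1h2ac and Hist1h2bc were held by 3 WT and 0 TPdh-/- libraries through 1 shared peak, and WT TE replicate 3 was the one without it. Hist1h3c, an H3 gene, and Hist1h2bb, an H2B gene beside it, were held by 3 TPdh-/- and 0 WT libraries, TPdh-/- TE replicate 2 being without. Their fold enrichments were 3.34, 3.16 and 3.46 at 4, 3 and 4 fragments in replicates 1, 3 and 4, each a single peak between the genes near the lower limit of the lists. Each of these 4 members gave p = 0.143 (two-sided Fisher's exact test, adjusted p = 1.0). The surplus for TPdh-/- was 2 of 33 members against 1.67% of genes, and that for WT was 2 of 33 against 3.57%. With a window of 250 bp Hist1h3c was held by 1 and Hist1h2bb by 2 TPdh-/- TE libraries, and Hist1h2ac and Hist1h2bc by 3 WT TE libraries. At a −log10 q of at least 5 these counts were 0, 0, 1 and 1, and with equal-sized lists 0 for each. The weakest member peak of WT TE, whose libraries were deeper, had 5 fragments, against 3 or 4 at Hist1h3c and Hist1h2bb. The part of depth in these differences was not tested, since it cannot be told apart from genotype in these lists.

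Between WT TM and WT TE, 12 of 29 members were held by more TM libraries and 8 by fewer. The shares were 41.4% and 27.6%, against 36.9% and 43.9% of 11522 genes. Separated members numbered 0 against 0.521% of genes, and no member differed by 3 libraries in either direction, where 0.686% of genes did toward TM and 4.83% toward TE. The smallest p of a member was 0.429 (two-sided Fisher's exact test).

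Between TPdh-/- TM and TPdh-/- TE, 29 of 43 members were held by more TM libraries and 7 by fewer. These were 67.4% and 16.3%, against 56.5% and 23.3% of 15332 genes. No member separated the groups, where 0.672% of genes did. Hist1h2bb was the only member that differed by 3 libraries, with 0 TM and 3 TE libraries (Fisher's exact p = 0.143, adjusted p = 1.0), against 0.613% of genes in that direction. Toward TM no member did, against 5.75% of genes. With a window of 250 bp Hist1h2bb was held by 0 TM and 2 TE libraries, and at a −log10 q of at least 5 by 0 of each. The 4 comparisons share groups, so these counts are not independent of one another.

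No gene passed an adjusted p of 0.05 in any of the 4 comparisons by Fisher's exact test with Benjamini-Hochberg adjustment. With 4 libraries against 4 the smallest unadjusted p of that test is 0.0286, which was reached by 133, 62, 60 and 103 genes in the order given above and by 0 members. The strength of a peak was tested only at genes held by all 8 libraries of a comparison, and no member was among them, the most being 4, 4, 4 and 5. Differences in strength at members were therefore not tested. Over the 68, 36, 39 and 73 genes held by all 8, fold enrichment differed at an adjusted p of 0.05 for 0 genes by exact permutation test, and at an unadjusted p of 0.05 for 3, 6, 4 and 1.

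Histone genes outside the clusters were held more often. The 11 genes of this list, which code for variant histones, were held in 34.7% of gene and library pairs, against 14.2% for the clustered members and 20.9% over all protein-coding genes, and each by at least 1 library. H2afz, the gene for H2A.Z, was held by 12 of 16 libraries and H2afv by 11. H3f3a and H3f3b, both coding for H3.3, were held by 8 each, while H1fx and H2afy2 were held by 1. In WT TM the list was held in 18.2% of pairs, against 36.4% to 43.2% in the other groups. WT TM was also the lowest group over all genes, with 15.8% against 18.8% to 29.4%. Length, number of starts and base composition were not compared between these genes and the clustered ones, and the part of those in the difference was not tested.

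Genes for histone mRNA control were held in 46.7% of pairs and those for histone chaperones in 44.6%, against 20.9% over all genes. Of the 17 genes of the first list, Pou2f1, which encodes the octamer-binding factor OCT1, was held by all 16 libraries. Among TE libraries 4 WT and 3 TPdh-/- held Npat, and among TM libraries 1 WT and 3 TPdh-/- did. Slbp was held by 2 libraries of each group but WT TM, where 1 held it. None of the 17 separated any groups. Of 7 chaperone genes, Asf1b, which hands H3 and H4 to the assembly factors, was held by 4 of 4 WT TE and 0 of 4 TPdh-/- TE libraries (unadjusted p = 0.0286 and adjusted p = 1.0, Fisher's exact test), a separation found in either direction at 0.492% of all genes compared. It was held by 1 WT TM and 2 TPdh-/- TM libraries. Chaf1b, a subunit of chromatin assembly factor 1, was held by 12 libraries, 4 each in WT TE and TPdh-/- TM and 2 each in the other groups.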

How the data were processed

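ATAC-seq peaks of 16 libraries were analysed as deposited lists. Reads had been trimmed by the authors with Trimmomatic, as their methods state. They aligned them to GRCm38 with BWA 0.7.17, dropped reads with alternative or split alignments and those in blacklisted regions, and called peaks with MACS2 2.2.7.1 on paired fragments with its mouse genome size. A cut-site offset, a q-value limit and a control library are not given in the sources used here. Each peak was deposited by the authors with a score, a fold enrichment (the ratio of summit pileup to local background), a −log10 p-value and a −log10 q-value. These values were used as deposited and were not scaled between libraries. The score, which follows from the q-value, was not used.

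Fold enrichment and p-value together fix the summit pileup, which was solved for each peak and was whole for at least 99.96% of the peaks of each library. The 1st percentile of the local background over the peaks of a list gave the background coverage. Intervals for counting error were not computed, since read totals were not analysed here. Gene starts came from GENCODE release M21. A gene counted as held by a library with a peak within 1000 bp of a start, and of several peaks the one with the highest −log10 q counted.

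Groups came from the titles. Genes held by at least 1 of 8 libraries were put to Fisher's exact test (two-sided), and fold enrichment of genes held by all 8 by exact permutation over 70 arrangements, each adjusted by Benjamini and Hochberg over all genes tested. Both were checked on simulated data. Repeated 50-base stretches and motifs were counted in the GRCm38.p6 sequence of RefSeq. Python 3.11.15, numpy 2.4.6, pandas 2.3.3 and scipy 1.17.1 were used.

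The genes named are members that separate groups, the 10 held by the most libraries (ties by mean −log10 q), all Hist3, Hist4 and linker genes, and genes of other lists that separate groups or are held by all 16 libraries. Other names were chosen after their values were seen. The members and lists were chosen with earlier results of these data known. Equal-sized lists, a summit within 1000 bp, a window of 250 bp, the annotated 5' end only, a −log10 q of at least 5, each replicate left out and a replicate block were tried as alternatives. Protein sequences were not used here, and some marker genes and promoter sequences are not reported here.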

Additional observations from a re-analysis of the deposited data

Results flagged for a closer look

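Among 24 looks at a group of 4 libraries (6 measures in 4 groups), 1 library stood far from the others of its group. WT TM replicate 3 had a background coverage of 0.572 fragments per base, while the other WT TM libraries had 0.354, 0.355 and 0.364. It held 0 members and 4.82% of all genes, the lowest share of the series. Chance marks about 1 in 20 such groups.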

How the results depend on the processing

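No member separated any groups with a summit within 1000 bp, a window of 250 bp or the annotated 5' end only. The same count of 0 with equal-sized lists, at a −log10 q of at least 5 and with the replicate block says nothing of stability, since 13 and 9 of 16 libraries then held no member and the block cannot pass. Leaving out 1 replicate gave 0 to 1 members in TPdh-/- TM against WT TM (Hist1h1c without TPdh-/- TM replicate 3), 0 to 2 in TPdh-/- TE against WT TE (Hist1h3c and Hist1h2bb without TPdh-/- TE replicate 2, Hist1h2ac and Hist1h2bc without WT TE replicate 3), 0 in WT TM against WT TE and 0 to 1 in TPdh-/- TM against TPdh-/- TE (Hist1h2bb without TPdh-/- TE replicate 2). Mean members held per library, given for TE (WT, then TPdh-/-) and then TM (WT, then TPdh-/-), fell from 6.5, 8.25, 7.0 and 16.25 to 0.75, 0.0, 0.5 and 0.0 with equal-sized lists of the 2290 best peaks, where 13 of 16 libraries held no member. They fell to 0.75, 0.5, 1.0 and 2.5 at a −log10 q of at least 5. Leaving out 1 replicate gave 5.0 to 8.0, 5.67 to 11, 4.67 to 9.33 and 14.3 to 17.7. The member share in TPdh-/- TM exceeded that of all genes by 1.37 percentage points at the annotated 5' end only, and lay below it otherwise. Without 1 replicate, the mean member share minus that of all genes was -10.4 to -7.91 percentage points in WT TE and -9.70 to -3.85 in TPdh-/- TE. In WT TM it was -6.64 to -4.38 and in TPdh-/- TM -6.73 to -2.79. All genes that separate groups, in the order of the report, numbered 133, 62, 60 and 103. They numbered 4, 118, 120 and 6 with equal-sized lists. In the first comparison they numbered 84 with a window of 250 bp, 82 at the annotated 5' end only and 25 at a −log10 q of at least 5, and in the fourth 19 at the last setting. Without 1 replicate they ranged over 153 to 358, 92 to 198, 88 to 215 and 147 to 293, partly because 3 libraries agree more easily than 4. With the replicate block 0 genes passed, since its smallest p is 0.125; same-numbered libraries did not deviate together (correlations of -0.101 to 0.225), so the numbers were not taken as pairs. Fold enrichment gave 0 genes at an adjusted p of 0.05 in every setting tried, which with a smallest unadjusted p of 0.0286 says little of stability.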
